A study of Homo sapiens with 5 samples.

Results

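The mRNAs of the translation initiation factors eIF1 to eIF6 and of the 4E-binding proteins were followed in HCT116 cells, an established human colorectal carcinoma line, after treatment with LT4 and in control cells. They are the 36 genes of a given list (eIF2 alpha, eIF2B and the eIF2 kinases are not on it), matched by symbol, out of 60623 genes in the table. All 36 were found, and all 36 passed the filter on low counts that left 13833 genes for testing. An mRNA library kit was used for 2 libraries of LT4-treated cells (replicates 1 and 3) and 3 libraries of control cells (replicates 1, 2 and 3). The labels give no dose, time or vehicle, the series title calls the compound 4-acetylantrocamol LT3 while its samples are named LT4, and the headers of the table name the LT4 libraries as separate groups, so that a shared treatment is not stated. Nothing says that libraries of a group are separate cultures, so the p-values rest on a spread that could be purely technical.

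Initiation begins when eIF1, eIF1A, eIF3, eIF5 and the eIF2-GTP-initiator tRNA complex load onto the small ribosomal subunit. The cap-binding protein eIF4E, the scaffold eIF4G and the helicase eIF4A, together called eIF4F, bring this assembly to the mRNA cap, and eIF5B then joins the large subunit. The 4E-BPs hold eIF4E away from eIF4G until mTOR phosphorylates them, which makes this step a main output of mTOR signalling downstream of PI3K and AKT, the pathway named in the series title. That control acts on proteins and is not read by mRNA counts. Many mRNAs of the translation machinery start with a C followed by a run of pyrimidines, the 5′ terminal oligopyrimidine (TOP) tract, through which mTOR and LARP1 control their translation.

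The first transcribed bases are shown because a TOP tract is read there. RefSeq promoter entries (GRCh38.p14) were matched by symbol for 29 of the 36 genes, with 41 annotated starts. A C at the annotated start followed directly by at least 4 pyrimidines was found in 9 of these 41 starts (22%), each of a different gene, against 4.07% of all 35116 RefSeq promoters. The windows run from 40 bases before the start to 20 bases after it, 5′ to 3′ on the transcribed strand. Capitals mark the pyrimidine run and, in EIF4B, also the palindrome CACGTG.
EIF2S3 (chrX:24054916-24054975, plus strand): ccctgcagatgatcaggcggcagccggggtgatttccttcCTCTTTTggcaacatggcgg
EIF2A (chr3:150546747-150546806, plus strand): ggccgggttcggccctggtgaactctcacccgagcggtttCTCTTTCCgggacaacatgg
EIF2D (chr1:206612446-206612505, minus strand): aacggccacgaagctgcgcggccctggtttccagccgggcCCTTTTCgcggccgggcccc
EIF3D (chr22:36529147-36529206, minus strand): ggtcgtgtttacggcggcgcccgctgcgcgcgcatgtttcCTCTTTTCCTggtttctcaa
EIF3F (chr11:7987297-7987356, plus strand): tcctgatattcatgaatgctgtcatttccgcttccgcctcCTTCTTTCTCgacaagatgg
EIF3K (chr19:38619148-38619207, plus strand): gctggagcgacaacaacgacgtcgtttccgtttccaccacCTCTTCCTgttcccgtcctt
EIF3M (chr11:32583791-32583850, plus strand): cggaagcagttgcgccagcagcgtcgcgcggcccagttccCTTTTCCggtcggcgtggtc
EIF4A2 (chr3:186783537-186783596, plus strand): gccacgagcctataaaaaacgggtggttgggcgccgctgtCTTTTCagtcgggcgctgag
EIF4B (chr12:53006416-53006475, plus strand): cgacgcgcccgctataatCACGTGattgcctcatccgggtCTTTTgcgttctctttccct
The run was longest, at 10 bases, in EIF3D and EIF3F. For contrast, the cap-binding protein EIF4E and the 4E-BP EIF4EBP2 had no such run at the annotated start, and their windows hold no capitals.
EIF4E (chr4:98929114-98929173, minus strand): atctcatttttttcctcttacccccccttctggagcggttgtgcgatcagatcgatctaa
EIF4EBP2 (chr10:70404105-70404164, plus strand): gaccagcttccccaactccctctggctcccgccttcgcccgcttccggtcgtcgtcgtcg
CACGTG, the core letters of the E-box read the same on both strands, occurred within the 300 bases of 8 of the 41 promoters (19.5%), against 7.26% of all promoters. EIF4E carried it at 225 and 72 bases before its start (-225 and -72). TGATGNAA, the core of ATF4-type elements, was searched on both strands and was in 0 of 41 promoters, against 3.62% of all. Not searched were EIF2S2, EIF3A, EIF3E, EIF3G, EIF3H, EIF3L and EIF4EBP1. Among the 9 genes with the run, log2 fold changes (LT4 over control) ranged from -0.25 to 0.43 with a median of -0.02. Among the 20 without it they ranged from -0.29 to 0.71 with a median of 0.01. The 0.71 is that of EIF4A1, which had 6 counts in LT4 replicate 3, and the next highest was EIF5 at 0.48.

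Total counts were 9840467 and 2281912 in LT4 replicates 1 and 3, against 11653484 to 12296916 in controls. LT4 replicate 3 stood apart. A nonzero count was seen for 16770 genes there, against 19377 to 20203 elsewhere, and the mitochondrial share of counts was 9.92%, against 5.73% to 6.64%; the part of either in the results below was not tested. The members together took 1.12% and 1.09% of counts in LT4 replicates 1 and 3, and 1.14%, 1.12% and 1.09% in controls 1, 2 and 3. Leaving aside EIF4A1, the lowest count of a member was 185 and 58 in LT4 replicates 1 and 3 and 192 to 279 in controls. Epithelial markers (EPCAM, KRT8, KRT18, KRT19 and CDH1) summed to 13480 and 12562 CPM (counts per 1000000) with LT4 and to between 13239 and 15447 CPM in controls, nearly all of it keratins. CDH1 alone was at 62.9 and 44.8 CPM with LT4, against 68.1, 69.9 and 71.8 CPM in controls, below them in both LT4 libraries; it did not pass (log2 fold change -0.34, edgeR adjusted p = 0.37), but did with LT4 replicate 3 alone (-0.64, edgeR adjusted p = 0.0443). Markers of other cells (PTPRC, CD3E, COL1A1, COL3A1 and ALB) summed to 9.14 to 17.0 CPM in the same libraries, nearly all of it COL1A1, with PTPRC and CD3E at 0.

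No initiation factor or 4E-BP mRNA passed the test with LT4. By edgeR's quasi-likelihood test with Benjamini-Hochberg adjustment over 13833 genes, 0 of 36 members reached an adjusted p of 0.05, where 0.137% of all genes tested did (0.123% as higher and 0.0145% as lower). DESeq2 (87 of 24553 genes called) and limma voom (28 of 13833) also called 0 members. With no count filter edgeR called 1 (EIF3A), where 311 of 24553 genes were called. With a replicate block, a pairing that no label states, edgeR called 1 (EIF3A), where 427 of 13833 genes were called. At an unadjusted p under 0.05, 4 members (11.1%) were higher and 1 (2.78%) was lower, where 8.58% of all genes were higher and 5.28% lower. The median log2 fold change was -0.0016 over the members and -0.0032 over all genes tested. Of the members, 18 had positive and 18 negative values, where 49.6% of all genes were positive, and 30 lay within 0.3 of 0. For 35 of the 36 the 95% interval of the log2 fold change stayed between -1 and 1, and EIF4A1 was the exception.

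In 7 members (19.4%) the LT4 libraries both exceeded the 3 controls, and in 6 (16.7%) both were below them. This is close to the 17.3% and 16.5% of all genes tested that were separated in this way. The 7 include EIF4A1, which had 6 counts in LT4 replicate 3. The other 23 overlapped. The counts turned on 1 library: without LT4 replicate 1, so with LT4 replicate 3 alone against the controls, 4 members passed as higher and 1 as lower, where 2.54% of genes were higher and 1.58% lower. Its unadjusted p was below 0.05 for 7 higher and 4 lower members (all genes 9.98% and 9.36%). With LT4 replicate 1 alone 0 of 36 passed, where 2.47% of genes were higher and 1.23% lower. Its unadjusted p was below 0.05 for 3 higher and 4 lower members (all genes 9.99% and 8.32%). The sign of the fold change differed between the LT4 libraries for 13 members. Both comparisons use the same controls, and each assumes that its single LT4 library varies like them. In cell populations, fewer cells with a transcript and less of it per cell cannot be told apart.

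**Figure D1:**
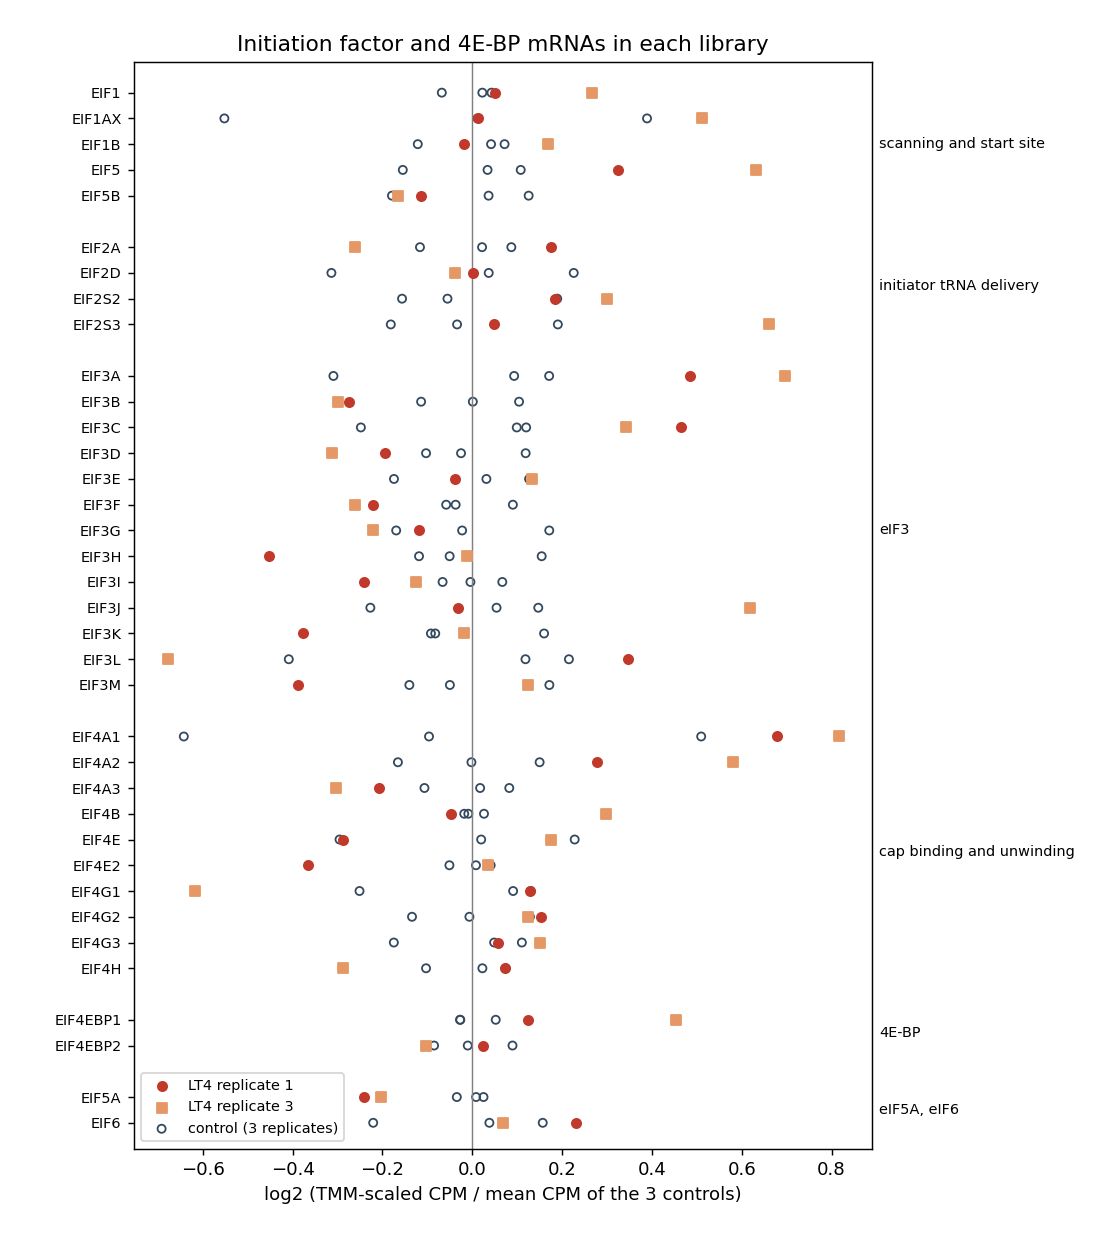
TMM-scaled CPM of each member in each library, as log2 of its ratio to the mean of the 3 controls (x axis), with members grouped by role; red circles and orange squares are LT4 replicates 1 and 3 and open circles the controls. In 23 of the 36 rows an LT4 library falls among or on both sides of the controls, and LT4 replicate 3 is often the outermost point.

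**Figure D2:**
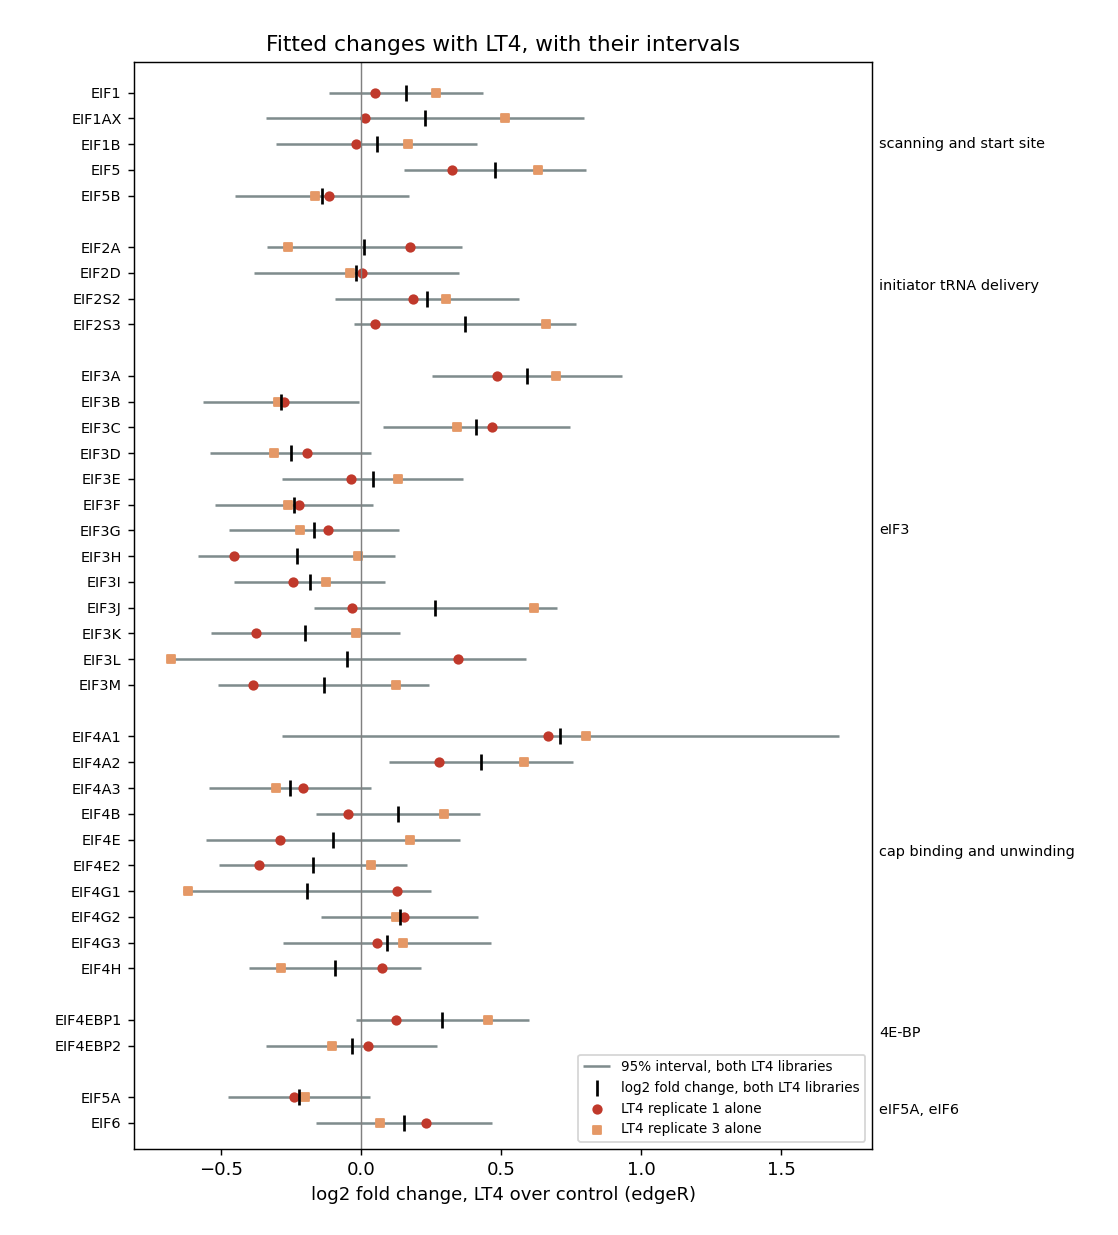
Fitted log2 fold change, LT4 over control (black ticks), with its 95% interval (grey lines), and the fold changes with LT4 replicate 1 (red circles) or LT4 replicate 3 (orange squares) alone. The intervals of 5 members exclude 0 (EIF3A, EIF5, EIF4A2, EIF3C and EIF3B), none of them past the adjusted threshold, and EIF4A1 has the widest interval.

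Among the factors of scanning and start-site selection, EIF5, the GTPase-activating protein of eIF2, came nearest to the threshold. It had 132 and 163 CPM in LT4 replicates 1 and 3, against 108, 94.4 and 113 CPM in controls 1, 2 and 3. Both LT4 values lay above all controls, more clearly in replicate 3. The log2 fold change was 0.48 (SE 0.15, 95% interval 0.15 to 0.80, adjusted p = 0.19 by edgeR). With LT4 replicate 3 alone it passed (0.63, edgeR adjusted p = 0.0134), and with LT4 replicate 1 alone it did not (0.33, edgeR adjusted p = 0.211).

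EIF5B, the GTPase that joins the large subunit, had the lowest fold change of this group. Its values were 130 and 126 CPM with LT4, against 145, 125 and 154 CPM in controls, and the groups overlapped (log2 fold change -0.14, 95% interval -0.45 to 0.17). EIF1, which guards start-codon fidelity, had 711 and 827 CPM with LT4, against 656, 698 and 708 CPM in controls. LT4 replicate 1 was barely above the highest control, and the fold change was 0.16 (edgeR adjusted p = 0.602). EIF1AX (0.23) and EIF1B (0.06), a close paralogue of EIF1, overlapped between groups. All 5 members together had a median of 0.16, with 4 positive values and 0 called.

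The 4 members that deliver initiator tRNA had a median of 0.12 and overlapped between groups without exception. EIF2S3, the GTP-binding gamma subunit of eIF2, had 125 and 191 CPM in LT4 replicates 1 and 3, against 118, 107 and 138 CPM in controls. Only LT4 replicate 3 was outside the control range. Its fold change was 0.37 (SE 0.18, 95% interval -0.03 to 0.77, edgeR adjusted p = 0.392), with 0.66 (edgeR adjusted p = 0.00929) from LT4 replicate 3 and 0.05 from LT4 replicate 1. EIF2S2, the beta subunit, had 0.24. EIF2D, which can place tRNA on the ribosome without eIF2, had 63.1 and 61.4 CPM with LT4, against 64.7, 73.7 and 50.7 CPM in controls (log2 fold change -0.02, 95% interval -0.38 to 0.35). EIF2A, a separate protein that is not eIF2 alpha, had 0.01, with 0.18 from LT4 replicate 1 and -0.26 from LT4 replicate 3.

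eIF3 is the largest initiation factor, a complex that holds the small subunit, the other factors and the mRNA together. Its 13 genes had a median log2 fold change of -0.17, with 4 positive and 9 negative values and 0 called. Their median was -0.19 for LT4 replicate 1 and -0.02 for LT4 replicate 3, each set against the controls. The fitted changes of the subunits did not share a direction, and none was called. EIF3A and EIF3C (2 of 13) lay above all controls in both LT4 libraries, where 17.3% of all genes tested did. EIF3B, EIF3D, EIF3F and EIF3I (4 of 13) lay below all controls in both, where 16.5% of all genes tested did.

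EIF3A, the largest subunit and a scaffold of the complex, had the smallest p of all members. It had 383 and 443 CPM in LT4 replicates 1 and 3, against 292, 308 and 221 CPM in controls 1, 2 and 3. The gap between the groups was wider than the range within LT4 and narrower than that within the controls, where control 3 was low. The mean was 413 ± 42.7 CPM with LT4 (SD, n = 2) and 274 ± 46.4 CPM in controls (SD, n = 3), and the log2 fold change 0.59 (SE 0.16, 95% interval 0.25 to 0.93, adjusted p = 0.133 by edgeR). It passed with LT4 replicate 3 alone (0.70, edgeR adjusted p = 0.00878), was at 0.48 (edgeR adjusted p = 0.0604) with LT4 replicate 1 alone, and passed with no count filter (0.55, edgeR adjusted p = 0.0343). Over all 15 alternatives it stayed positive, between 0.46 and 0.70. A fit with a replicate block, a pairing that no label states, also called EIF3A. With a control left out EIF3A did not pass (edgeR adjusted p of 0.312 to 0.401).

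EIF3C, another scaffold subunit, had 88.6 and 81.4 CPM with LT4, against 69.7, 68.7 and 54 CPM in controls (log2 fold change 0.41, SE 0.15, edgeR adjusted p = 0.265). Its near-identical copy EIF3CL had 43.6% as many counts over the 5 libraries, so how reads were split between them is uncertain; EIF3CL had 0.22. EIF3B, which binds the ribosome at the entry of the mRNA channel, had the lowest fold change of the subunits. Its values were 528 and 520 CPM with LT4, against 639, 687 and 590 CPM in controls. All controls were higher, and the fold change was -0.29 (SE 0.13, 95% interval -0.56 to -0.01, edgeR adjusted p = 0.347).

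EIF3D, a subunit that can itself bind the cap of some mRNAs, had -0.25, EIF3F -0.24 and EIF3I -0.18, with edgeR adjusted p of 0.423, 0.435 and 0.541. Reads of EIF3F are also uncertain, since its pseudogene copies held 19.5% as many counts. EIF3L differed most between the LT4 libraries. LT4 replicate 1 had 189 CPM and LT4 replicate 3 had 93.1 CPM, against 162, 173 and 112 CPM in controls, which lay between them. In GENCODE 29, 41.1% of its exonic bases also belong to other genes on the same strand, AL022311.1 sharing the most. The remaining subunits ran from -0.23 (EIF3H) to 0.27 (EIF3J, a loosely bound subunit).

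**Figure D3:**
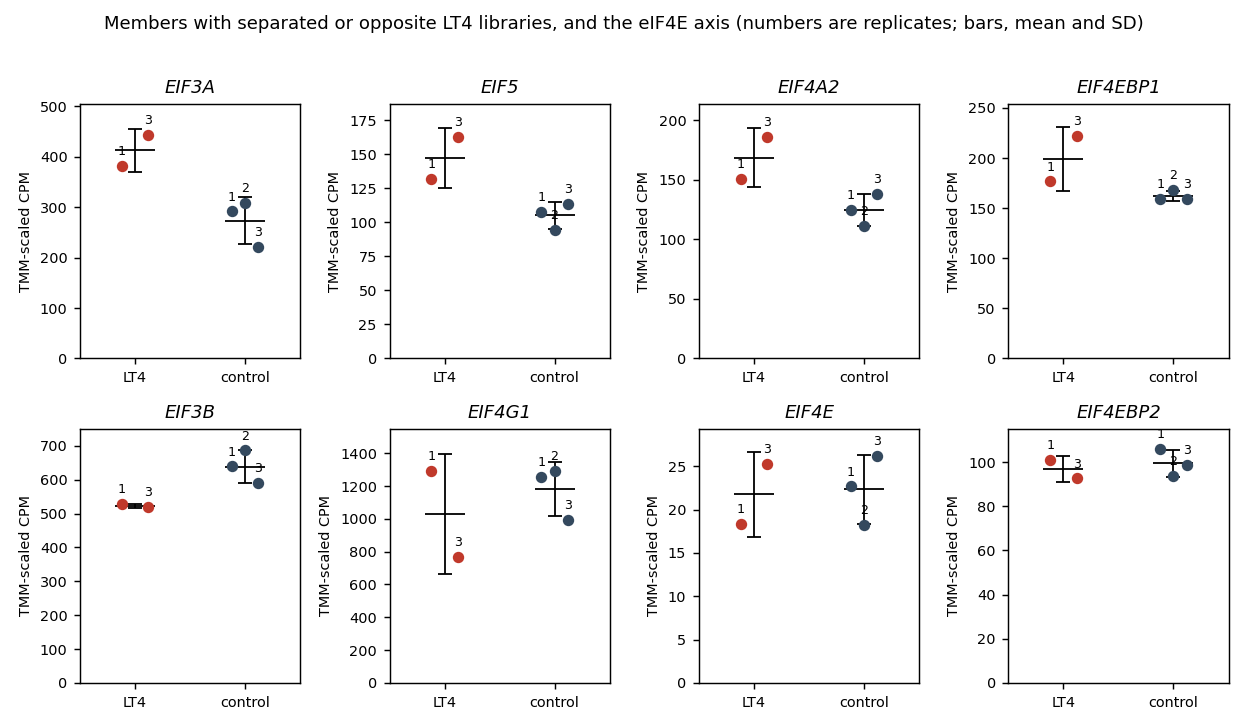
TMM-scaled CPM of 8 members in LT4 (red) and control (dark) libraries; the number at each point is the replicate and the bars are the mean and SD (n = 2 for LT4, n = 3 for control). EIF3A, EIF5, EIF4A2 and EIF4EBP1 have both LT4 points above all controls, EIF3B has both below, and EIF4G1 has LT4 replicate 1 at 1290 CPM and LT4 replicate 3 at 769 CPM.

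The eIF4F genes and their helpers had a median of 0.00 over 10 members. EIF4E, the cap-binding protein, had 18.3 and 25.2 CPM in LT4 replicates 1 and 3, against 22.7, 18.2 and 26.2 CPM in controls. Both LT4 values lay inside the control range, with a log2 fold change of -0.10 (95% interval -0.55 to 0.36). EIF4E2, a relative of eIF4E that competes for the cap, had -0.17.

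EIF4G1, the main scaffold, gave opposite values in the LT4 libraries. LT4 replicate 1 had 1290 CPM and LT4 replicate 3 had 769 CPM, against 1257, 1292 and 992 CPM in controls. LT4 replicate 3 was below all controls, while LT4 replicate 1 was level with the highest. Its fold change was -0.19 (95% interval -0.64 to 0.25, edgeR adjusted p = 0.708), with -0.62 (edgeR adjusted p = 0.0151) for LT4 replicate 3 alone and 0.13 for LT4 replicate 1 alone. EIF4G2, which works without eIF4E and is also called DAP5, had 0.14, and the paralogue EIF4G3 had 0.09.

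EIF4A2, a helicase paralogue of EIF4A1, had 151 and 186 CPM with LT4, against 124, 111 and 138 CPM in controls. Both LT4 libraries exceeded every control, and the fold change was 0.43 (SE 0.15, 95% interval 0.10 to 0.76, edgeR adjusted p = 0.238). With LT4 replicate 3 alone it passed (0.58, edgeR adjusted p = 0.0236), and with LT4 replicate 1 alone it had 0.28 (edgeR adjusted p = 0.3). EIF4A3, the related helicase of the exon junction complex, had the lowest fold change in the group, with 219 and 205 CPM with LT4 against 256, 267 and 235 CPM in controls. Both LT4 values were below all controls (log2 fold change -0.25, 95% interval -0.54 to 0.04, edgeR adjusted p = 0.423). EIF4B (0.13) and EIF4H (-0.09), which stimulate eIF4A, overlapped between groups.

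EIF4A1, the main helicase of eIF4F, was almost uncounted. It had 24 and 6 counts in LT4 replicates 1 and 3, against 26, 16 and 11 counts in controls 1, 2 and 3, where 3 counts make 1.31 CPM in LT4 replicate 3. By CPM it had 2.37 and 2.61 with LT4, against 2.11, 1.39 and 0.951 in controls, so that both LT4 values were above all controls. Its log2 fold change was 0.71 with a 95% interval of -0.28 to 1.70. In GENCODE 29 its gene lies on chromosome 17 from 7572706 to 7579005. Of its exonic bases, 48.6% also lie in exons of other genes on the same strand, AC016876.2 sharing the most. Readthrough gene SENP3-EIF4A1 had 1 to 5 counts and AC016876.2 had 0 to 2 counts in every library. The pseudogene EIF4A1P10 had 490 and 108 counts with LT4 and 742, 739 and 626 in controls. Of 389 protein-coding genes with over 95% of exonic bases shared on the same strand, 369 (94.9%) had 0 counts in all 5 libraries, against 22.9% of 16523 genes that share none. EIF4A1, at 48.6%, is in neither of these classes, and EIF3L, at 41.1%, had 7412 counts over the 5 libraries. The part of shared exons in the low counts of EIF4A1 was not tested.

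EIF4EBP1 was the more abundant 4E-BP mRNA by TPM, and a difference in fold change between the 4E-BPs was not tested. EIF4EBP1, which is also a known target of ATF4, had 177 and 222 CPM in LT4 replicates 1 and 3, against 159, 168 and 159 CPM in controls. Both LT4 values were above all controls, LT4 replicate 1 by a small margin. The mean was 199 ± 32 CPM with LT4 (SD, n = 2) and 162 ± 5.19 CPM in controls (SD, n = 3), with a log2 fold change of 0.29 (SE 0.14, 95% interval -0.02 to 0.60, edgeR adjusted p = 0.387). It was 0.12 with LT4 replicate 1 alone and 0.45 (edgeR adjusted p = 0.0674) with LT4 replicate 3 alone. EIF4EBP2 had 101 and 92.7 CPM with LT4, against 106, 93.9 and 98.9 CPM in controls. The groups overlapped, and the interval of its fold change (-0.03) ran from -0.34 to 0.27.

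EIF5A, the hypusine-containing factor that relieves stalled ribosomes, was the most abundant member. It had 2257 and 2319 CPM with LT4, against 2605, 2684 and 2715 CPM in controls. Both LT4 libraries were below all controls (log2 fold change -0.22, SE 0.12, 95% interval -0.48 to 0.03, edgeR adjusted p = 0.423). EIF6, which keeps free large subunits from joining small ones, had 323 and 288 CPM with LT4, against 282, 306 and 236 CPM in controls, and the groups overlapped (0.15).

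Levels per length were compared with the authors' TPM (transcripts per 1000000). EIF5A averaged 2271 ± 218 TPM with LT4 (SD, n = 2) and 2605 ± 20.8 TPM in controls (SD, n = 3). EIF3I came next, with 969 ± 56.1 TPM and 1084 ± 62.3 TPM in the same order, followed in controls by EIF1 at 497 ± 5.85 TPM and EIF4EBP1 at 483 ± 17.1 TPM, whose levels differed by less than their spread. In controls 15 members exceeded an average of 100 TPM and 3 (EIF4A1, EIF4E and EIF4G3) were under 10 TPM. The eIF3 subunits, which enter 1 complex, spanned 44.9-fold in controls, from EIF3C at 24.1 ± 3.8 TPM to EIF3I. EIF3C, EIF3J (25.2 ± 3.38 TPM) and EIF3M (31.8 ± 3.24 TPM) were the lowest by TPM, and EIF3C did not differ from EIF3J beyond its spread. TPM divides by exonic length, which in GENCODE 29 is 6982 bases for EIF3C and 1725 for EIF3I. By CPM, EIF3C averaged 64.1 and EIF3I 713 in controls, and EIF3C exceeded EIF3J in each control. Reads of EIF3C are also uncertain, since its copy EIF3CL held 43.6% as many counts. The part of length and read assignment in this span was not tested.

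EIF4E was low, at 4.07 ± 0.455 TPM with LT4 (SD, n = 2) and 4.17 ± 0.727 TPM in controls (SD, n = 3). TPM divides by annotated exonic length, and the 14067 exonic bases of EIF4E in GENCODE 29 are the most of any member. Its pseudogene copies held 36.4% as many counts. Summed 4E-BP TPM was 165 and 147 times that of EIF4E in LT4 replicates 1 and 3, against 121, 157 and 104 times in controls 1, 2 and 3. These ratios overlapped between the groups. EIF4EBP1 has 1073 exonic bases, the fewest of any member, and EIF4EBP2 has 7257. By CPM, which does not divide by length, control means were 162 for EIF4EBP1, 99.5 for EIF4EBP2 and 22.4 for EIF4E. The part of length in the size of ratios between these genes was not tested. The ratio of EIF4EBP2 to EIF4EBP1 TPM was 0.0673 and 0.0491 with LT4 and 0.0782, 0.0656 and 0.073 in controls, with LT4 replicate 3 below every control. EIF1B stood at 0.068 and 0.0666 of EIF1 with LT4 and at 0.077, 0.0646 and 0.0728 in controls. EIF4G3 stood at 0.0158 and 0.0282 of EIF4G1 with LT4, against 0.0168, 0.0157 and 0.0175 in controls, and only LT4 replicate 3 left the control range. EIF4G2 stood at 0.462 and 0.758 of EIF4G1 with LT4, against 0.466, 0.378 and 0.538 in controls, again with LT4 replicate 3 alone outside. The ratio of EIF4A2 to EIF4A3 was 0.651 and 0.859 with LT4, against 0.459, 0.392 and 0.556 in controls. Both LT4 libraries exceeded every control. This follows from EIF4A2 lying above and EIF4A3 below all controls by CPM, and adds nothing to those values. EIF4E2 was 8.19 and 7.84 times EIF4E with LT4, against 8.23, 10.9 and 7.42 times in controls, within the control range. None of these ratios was tested, and those of EIF4A2 to EIF4A3, EIF4G2 to EIF4G1 and EIF4E2 to EIF4E were not planned. The planned ratio of EIF4A2 to EIF4A1 is not given, since EIF4A1 was almost uncounted.

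**Figure D4:**
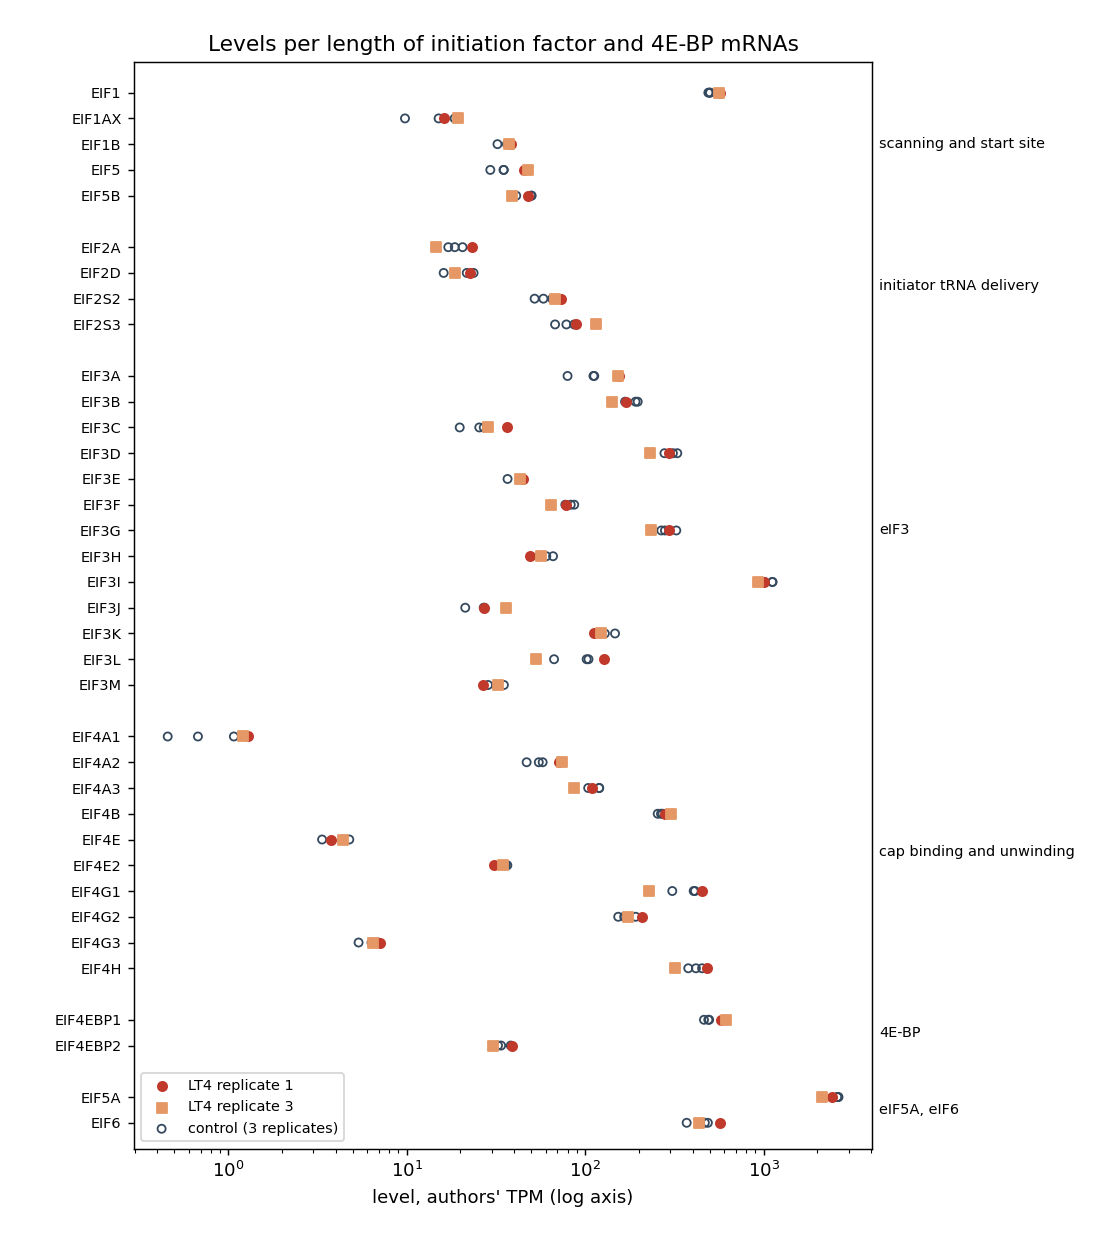
Level of each member in the authors' TPM (x axis, log scale) in each library, grouped by role; red circles and orange squares are LT4 replicates 1 and 3 and open circles the controls. EIF5A is highest, eIF3 subunits range from 24.1 TPM (EIF3C) to 1084 TPM (EIF3I) in the control means, and EIF4A1 lies alone near 1 TPM. TPM divides by exonic length, and how reads were split between EIF3C and its copy EIF3CL is uncertain.

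In the authors' deposited table, which compares each LT4 library with the controls by a test that is not named there, 1 member had an adjusted p under 0.05 with LT4 replicate 1, where 6.09% of genes did. This was EIF3A (log2 fold change 0.50, adjusted p = 0.0427 in the authors' deposited table). For LT4 replicate 3 the authors' deposited table had 4 members higher (EIF5, EIF2S3, EIF3A and EIF4A2) and 2 lower (EIF3L at -0.70 and EIF4G1 at -0.64), where 4.84% of genes passed. EIF3A had 0.67 there (adjusted p = 0.00424, authors' deposited table).

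Other genes of the pathway gave 0 calls by edgeR in 3 lists. Of 15 regulators of eIF4E and eIF4G, 14 were tested, with a median of 0.01. At an unadjusted p under 0.05, 1 was higher and 0 lower, where 8.58% of all genes were higher and 5.28% lower. GIGYF2, a partner of EIF4E2 in repression, had 56.2 and 60.5 CPM with LT4 against 44.4, 41.4 and 39.1 CPM in controls (log2 fold change 0.48, SE 0.14, edgeR adjusted p = 0.159), so that both LT4 values were higher. CYFIP1, an eIF4E-binding repressor, had 0.26 (edgeR adjusted p = 0.435).

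Among 12 accessory factors, all tested, 2 had higher and 3 had lower values with an unadjusted p below 0.05, where 8.58% of all genes tested were higher and 5.28% lower. The list's median was 0.29, against -0.0032 over all genes, with 9 positive and 3 negative values. Of the positive ones, DHPS (0.61), DHX29 (0.53) and EIF5A2 (0.42) had only 8, 21 and 11 counts in LT4 replicate 3. DDX3X, a helicase that helps ribosomes through structured leaders, had 179 and 242 CPM in LT4 replicates 1 and 3, against 130, 107 and 118 CPM in controls. Both LT4 values lay above all controls, though the gap between the groups was narrower than the range within LT4. DDX3X had a log2 fold change of 0.82 (SE 0.16, edgeR adjusted p = 0.0657). It passed with LT4 replicate 1 alone (edgeR adjusted p = 0.00874), with LT4 replicate 3 alone (6.6e-06) and by DESeq2 (0.80, adjusted p = 0.00107). It did not pass with a control left out (edgeR adjusted p of 0.249 to 0.371) or with the length trend removed (0.166). BZW2, an eIF5 mimic protein, had 81.3 and 75.7 CPM with LT4, against 127, 128 and 120 CPM in controls. All LT4 values were far below the controls (log2 fold change -0.66, SE 0.14, edgeR adjusted p = 0.0949), and BZW2 passed with LT4 replicate 1 alone (edgeR adjusted p = 0.0125), with LT4 replicate 3 alone (0.0107) and by DESeq2 (-0.68, adjusted p = 0.00564). It did not pass with a control left out (edgeR adjusted p of 0.282 to 0.376) or with counts thinned to equal totals (0.139).

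Of 9 elongation and termination factors 8 were tested, with a median of 0.06 and, by unadjusted p below 0.05, 0 higher and 1 lower against the same shares of all genes. EEF1A2, a paralogue of the factor that brings aminoacyl-tRNA to the ribosome, had 1130 and 812 CPM with LT4, against 1366, 1365 and 1096 CPM in controls. The groups overlapped through control 3 (log2 fold change -0.39, edgeR adjusted p = 0.305), and only LT4 replicate 3 alone passed (edgeR adjusted p = 0.00768). EEF2K, the kinase that inhibits eEF2, had 0.18 (edgeR adjusted p = 0.624). EEF1G was the factor not tested, with 0 counts in every library.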

How the data were processed

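Per the labels' protocols, TRIzol was used for extraction and the TruSeq Stranded mRNA kit for the libraries. Per the submitters' processing notes, the tools were HISAT2 2.1.0, fastp 0.20.0, Subread 2.0.1, featureCounts and SAMtools 1.9, with GRCh38; annotation release, strand setting and treatment of reads on shared exons were not given in the sources used here, and genes overlapped by others are uncertain. Per the file headers, the deposited table holds raw read counts per gene, the authors' TPM (scaled to 1000000 per library), and, for each LT4 library, the authors' log2 fold change with its p-value, raw and adjusted. Not used were 2 per-sample and 3 comparison columns that match none of these samples.

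Members and lists were chosen with earlier results of these data known. Counts of all genes were fitted with edgeR 4.0.16 (R 4.3.3; expression filter, TMM, robust quasi-likelihood F test, group as the only term, Benjamini-Hochberg over 13833 genes, threshold 0.05; biological coefficient of variation 14.6%). SE was computed as |log2 fold change| over √F, and CPM is TMM-scaled. Groups came from sample titles. Values in every library are given for EIF4E, the 4E-BPs and, in each role, the members with the highest and lowest fold change and the smallest p, and in each other list the 2 genes with the smallest p are named; members called with 1 LT4 library are also named, and EIF1, EIF3C, EIF3L, EEF1G and CDH1 were chosen after their values were seen. Alternatives were RLE factors, library totals, no filter, at least 50 counts in 2 libraries, each library left out, a replicate block, DESeq2 1.42.0, limma 3.58.1 voom, an adjusted p of 0.01, protein-coding genes without mitochondrial and histone genes, a loess trend on length (span 0.5) and thinned counts; leaving out members with over 10% of exonic bases shared was chosen after seeing the data. Positions and shared exons came from GENCODE 29 (GRCh38), which held 58516 of the 60623 genes; the authors' annotation may differ. Promoters came from RefSeq. The fit was tested on simulated counts. It recovered 8 of 67 genes changed 1.5-fold, 48 of 67 changed 2-fold and 64 of 66 changed 4-fold, with 8 false calls. Changes near 1.5-fold would therefore mostly go uncalled. Intervals cover the spread between libraries, and 3 counts are taken as the limit for a count of 0.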

Additional observations from a re-analysis of the deposited data

How the results depend on the processing

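Precision is limited by 2 LT4 libraries, 1 of them with 2281912 counts. Over all genes 19 were called, against 311 with no count filter, 427 with the replicate block, 87 by DESeq2, 35 with the length trend removed, 1 at an adjusted p of 0.01 and 1 to 598 with 1 library left out. Members called were 0, but 1 (EIF3A) with no count filter and 1 (EIF3A, 0.69, adjusted p = 5.98e-05) with the replicate block, and 0 to 5 with 1 library left out; their median ran from -0.017 to 0.10 there. The cause was not tested. Replicate numbers are shared by 2 pairs only, and no label says what they mark, so they are not taken to pair the libraries. Deviations correlated at 0.207 and 0.212 in the pairs that share a number. The crossed pairs, at -0.207 and -0.212, mirror these because LT4 has only 2 libraries. These correlations cannot decide whether the libraries are paired. Of 538 member values under alternatives, 494 kept their direction and side of the threshold, 7 became called and 37 changed sign, in 15 members, none of them called with all libraries. These sign changes were, with library totals only EIF2D (0.033), EIF3L (0.0025), EIF4EBP2 (0.013); with no count filter EIF2A (-0.023); with the replicate block EIF2A (-0.063), EIF2D (0.10), EIF3E (-0.034), EIF3L (0.0019); by DESeq2 EIF2A (-0.0066); by limma voom EIF2D (0.0049); with the gene-length trend removed EIF3E (-0.018), EIF4G2 (-0.0015), EIF4G3 (-0.077); thinned to equal totals EIF2A (-0.031), EIF2D (0.070), EIF3M (0.089). With 1 library left out, signs changed within these ranges: EIF2D -0.15 to 0.11, EIF3L -0.68 to 0.35, EIF4EBP2 -0.10 to 0.025, EIF2A -0.26 to 0.18, EIF3E -0.037 to 0.13, EIF4E -0.29 to 0.18, EIF3M -0.39 to 0.13, EIF4E2 -0.36 to 0.036, EIF1B -0.018 to 0.17, EIF3J -0.031 to 0.62, EIF4G1 -0.62 to 0.13, EIF4B -0.046 to 0.30, EIF4H -0.29 to 0.074. Without the 4 members that share over 10% of exonic bases, a choice made after seeing the data, the median was -0.02, with 0 called. EIF4A1 gave no value with at least 50 counts in 2 libraries or thinned. The members above all controls numbered 7 to 9 and those below 6 to 7 under RLE, library totals and thinning.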

Other observations

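EEF1G, a core subunit of the elongation factor complex that every dividing cell uses, had 0 counts in all 5 libraries. In GENCODE 29, 99.9% of its exonic bases also lie in exons of other genes on the same strand, AP002990.1 sharing the most. DHPS, which makes the first step of eIF5A hypusination, had 18 and 8 counts in LT4 replicates 1 and 3 and 20, 17 and 16 in controls, with 38.5% of its exonic bases shared. Both were noticed after their values were seen.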
